A study of Mus musculus with 6 samples.

Results

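The pro-apoptotic genes of the BCL2 family were followed in germinal center (GC) B cells that could or could not receive IL-21. The genes were taken by name, with earlier results of these data known: 8 BH3-only genes (*Bcl2l11*, *Bbc3*, *Pmaip1*, *Bmf*, *Bik*, *Bid*, *Bad* and *Hrk*) and the 2 effector genes *Bax* and *Bak1*, that is 10 of the 27179 genes counted. The data were 6 RNA-seq libraries of GC B cells from the spleen, with 1 library from WT and 1 from Il21r-/- mice, all C57BL/6, on each of days 7, 10 and 14 after a single i.p. immunization with NP-KLH (a hapten on a carrier protein) in alum. *Il21r* encodes the receptor for IL-21, a cytokine made by T follicular helper cells. The cells were sorted as viable B220+ cells that bound NP, carried IgG1 and lacked CD138, IgM, IgD, Gr1 and CD38, so propidium iodide-positive cells, which had lost membrane integrity, were not in the libraries. The study's methods place nearly all of its experiments in irradiated Ly5.1 hosts reconstituted with WT or Il21r-/- bone marrow, in which non-hematopoietic cells stay those of the host, and do not exempt the RNA-seq. The series' design text gives each library its own mouse whereas the methods count several mice per genotype from separate immunizations and a supplementary legend several per genotype for the day 7 sort, so the number of mice behind a library is not known, and the labels give no age.

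The BCL2 family sets the threshold for mitochondrial apoptosis. BH3-only proteins are induced or activated by stress, withdrawal of survival signals or DNA damage, and bind through a short helix, the BH3 domain, into a groove on their relatives. Some engage BAX and BAK directly, others occupy the pro-survival proteins such as BCL2, BCL-XL, MCL1 and A1. BAX and BAK then open pores in the outer mitochondrial membrane, which releases cytochrome c and starts the caspase cascade. GC B cells are known to die in large numbers unless they are selected by antigen and T cell help, and BIM, the product of *Bcl2l11*, is a main mediator of lymphocyte death.

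The bases that encode the BH3 core are shown for the members that differed most between the groups and for both effectors, because this is the part of the coding sequence that the family shares. They were read from GENCODE transcripts (build GRCm38), 63 bases each in the direction of transcription. The 7 codons of the core are in capitals, from the conserved leucine codon to the codon after the conserved aspartate. The intervals are chr2:128147129-128147191 on the plus strand for *Bcl2l11*, chr2:118545085-118545147 on the minus strand for *Bmf*, chr7:16313752-16313814 on the plus strand for *Bbc3*, chr7:45465982-45466044 on the minus strand for *Bax* and chr17:27022516-27022578 on the minus strand for *Bak1*, each within a coding exon.
Bcl2l11: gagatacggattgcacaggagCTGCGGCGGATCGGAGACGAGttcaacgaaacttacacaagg
Bmf: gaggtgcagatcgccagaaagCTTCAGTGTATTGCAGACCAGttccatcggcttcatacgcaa
Bbc3: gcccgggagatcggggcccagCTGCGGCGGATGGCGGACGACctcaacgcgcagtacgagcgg
Bax: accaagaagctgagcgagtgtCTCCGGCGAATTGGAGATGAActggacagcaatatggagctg
Bak1: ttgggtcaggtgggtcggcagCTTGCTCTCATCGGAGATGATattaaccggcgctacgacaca

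Of the 21 core bases of *Bcl2l11*, *Bbc3* shared 17, *Bax* 16, *Bmf* 14 and *Bak1* 13 at the same position. *Bcl2l11* and *Bbc3*, with the most alike cores, had genotype differences of opposite sign, as did *Bcl2l11* and *Bmf*.

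The libraries held 21353438 to 27435124 reads on genes. Levels of a gene are given in CPM, the reads on the gene per 1000000 reads of the library total after TMM correction, which allows for library composition. Levels of different genes are compared as RPKM, the CPM divided by the gene's counted length in kilobases as deposited. Genes with an average log2 CPM of at least 0 were tested, which left 11005 genes and 8 of the 10 members. The main comparison set the 3 WT against the 3 Il21r-/- libraries with a linear effect of day, by edgeR's quasi-likelihood test. Fold changes are WT over Il21r-/-, so positive log2 values mean higher in WT, and genes with a Benjamini-Hochberg adjusted p under 0.05 over all genes tested were called. With 1 library per genotype and day, p-values measure the spread between these 6 libraries around the fitted effects. *Il21r* itself, the targeted gene, was lower in the Il21r-/- library on every day, at 30.6% of the WT level on day 7, 48.5% on day 10 and 45.7% on day 14. Its log2 fold change was 1.29 ± 0.13 (SE), and transcripts of the targeted locus were thus still counted in the Il21r-/- libraries.

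The members spanned a wide range of levels. By mean RPKM over the 6 libraries, *Bax* was the most abundant at 120, with 112 to 143 in single libraries, above *Bid* at 102 and *Bak1* at 91.1. The ranges of *Bid* (90.6 to 111) and *Bak1* (72.3 to 111) overlapped, so these neighbours were not separated, while *Bax* lay just above both. *Bad* followed at 46.5 RPKM, with no overlap with its neighbours. *Bmf* had a mean of 15.5 RPKM and its lowest library, 8.46, overlapped the range of *Bcl2l11* (4.01 to 9.29). *Bcl2l11*, *Pmaip1* (3.61 to 5.69 RPKM) and *Bbc3* (3.06 to 6.86 RPKM) were not separated from each other by their ranges. *Bik* had 0.742 RPKM and *Hrk* no read. The most abundant members were thus the effectors and the BH3-only genes *Bid* and *Bad*, whose products are known to be controlled after translation by cleavage and by phosphorylation.

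**Figure D1:**
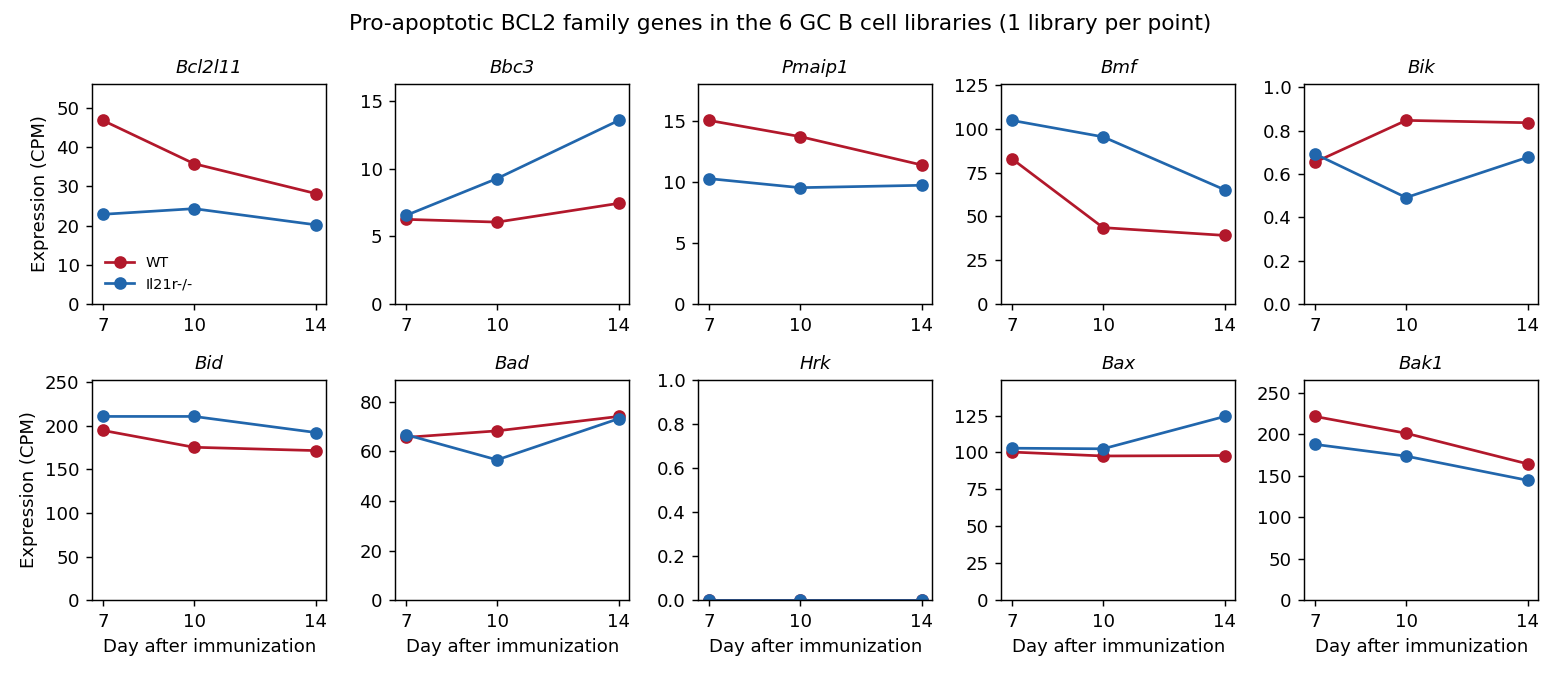
Level of each of the 10 genes in CPM (y axes from 0, one scale per gene) against the day after immunization, with 1 point per library, WT in red and Il21r-/- in blue. *Bcl2l11* and *Pmaip1* are higher in WT at every day, *Bmf* is higher in Il21r-/- at every day, the 2 lines of *Bbc3* start together and part, and *Hrk* has no read in any library.

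Of the 8 members tested, 2 were called over the 3 days, *Bcl2l11* higher in WT and *Bmf* higher in Il21r-/-, where 5.92% of all genes tested were called (651 genes, of which 497, or 76.3%, were higher in Il21r-/-). The members did not move together: 4 had a positive and 4 a negative log2 fold change, and their median was -0.03 beside -0.01 over all genes tested. When day was fitted as a factor, which compares the 2 libraries of a day with each other, the calls rose to 5 members, with *Bbc3* joining *Bmf* as higher in Il21r-/- and *Pmaip1* and *Bak1* joining *Bcl2l11* as higher in WT, but the share of all genes called rose too, to 22.9% (2519 genes). In bulk RNA, fewer cells that express a gene and less of its RNA per cell cannot be told apart.

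**Figure D2:**
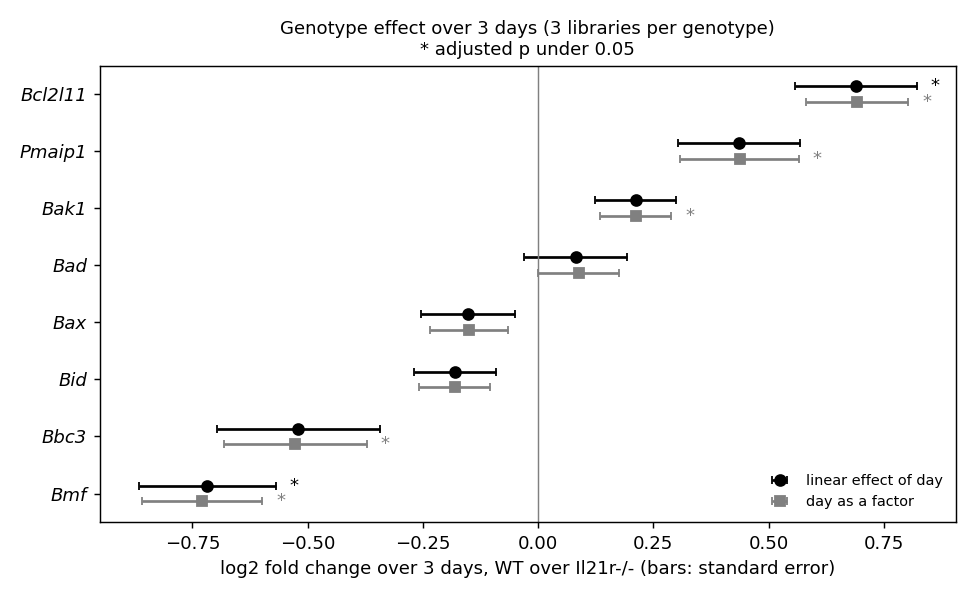
Log2 fold change over the 3 days, WT over Il21r-/- (x axis), for the 8 members tested, with standard errors as bars, from the fit with a linear effect of day (black) and with day as a factor (grey). Asterisks mark an adjusted p under 0.05: *Bcl2l11* (0.69) and *Bmf* (-0.72) pass in both fits, *Bbc3*, *Pmaip1* and *Bak1* only with day as a factor.

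*Bcl2l11* encodes BIM, a BH3-only protein that binds all pro-survival relatives and can activate BAX directly. In WT it measured 46.8 CPM on day 7, 35.8 on day 10 and 28.2 on day 14, and in Il21r-/- 22.9, 24.3 and 20.2 CPM on the same days, from 507 to 1286 reads per library. The lowest WT library, day 14, lay above the highest Il21r-/- library, day 10, so the genotypes did not overlap. Over the 3 days the mean was 36.9 ± 9.36 CPM in WT and 22.5 ± 2.09 in Il21r-/- (SD, n = 3, across days), a log2 fold change of 0.69 ± 0.13 (SE, adjusted p = 0.0195 by edgeR's quasi-likelihood test). The Il21r-/- level was thus 62% of WT. The call did not hold in every subset of the libraries: the adjusted p was 0.0815 without WT day 7, 0.0653 without Il21r-/- day 7 and 0.0979 without WT day 14, with log2 fold changes of 0.57, 0.56 and 0.79.

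Day by day, edgeR's likelihood ratio test compared the 2 libraries of a day with the spread of the whole series. *Bcl2l11* was the member called on day 7, with a log2 fold change of 1.03 ± 0.26 (SE) and an adjusted p of 0.0112, where 1.07% of all genes were called. The Il21r-/- library then held 48.9% of the WT level. The share was 68% on day 10 and 71.7% on day 14, with log2 fold changes of 0.56 (adjusted p = 0.382) and 0.48 (adjusted p = 0.483). A DESeq2 Wald test on day 7 gave a log2 fold change of 0.99 and an adjusted p of 1.

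*Bmf* encodes a BH3-only protein that is held at the cytoskeleton by dynein light chain and freed on loss of attachment or of survival signals. In Il21r-/- it measured 105 CPM on day 7, 95.3 on day 10 and 65.2 on day 14, and in WT 82.9, 43.6 and 39.2 CPM. The Il21r-/- library was the higher one on each day, but the WT library of day 7 lay above the Il21r-/- library of day 14, so the genotypes overlapped. The log2 fold change over the 3 days was -0.72 ± 0.15 (SE, adjusted p = 0.0273), with an Il21r-/- level 164% of WT. The call was lost without Il21r-/- day 7 (adjusted p = 0.0533), WT day 10 (0.0663), WT day 14 (0.178) and Il21r-/- day 14 (0.115), with log2 fold changes of -0.81, -0.58, -0.75 and -0.67. On day 10 *Bmf* was the member called, at a log2 fold change of -1.13 ± 0.28 (adjusted p = 0.00521 by edgeR's likelihood ratio test), or 219% of WT, where 3.1% of all genes were called. On day 14 no member was called, where 3.28% of all genes were. At an unadjusted p under 0.05, 2 members passed on day 14, as did 12.1% of all genes. DESeq2 also called no member on that day.

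**Figure D3:**
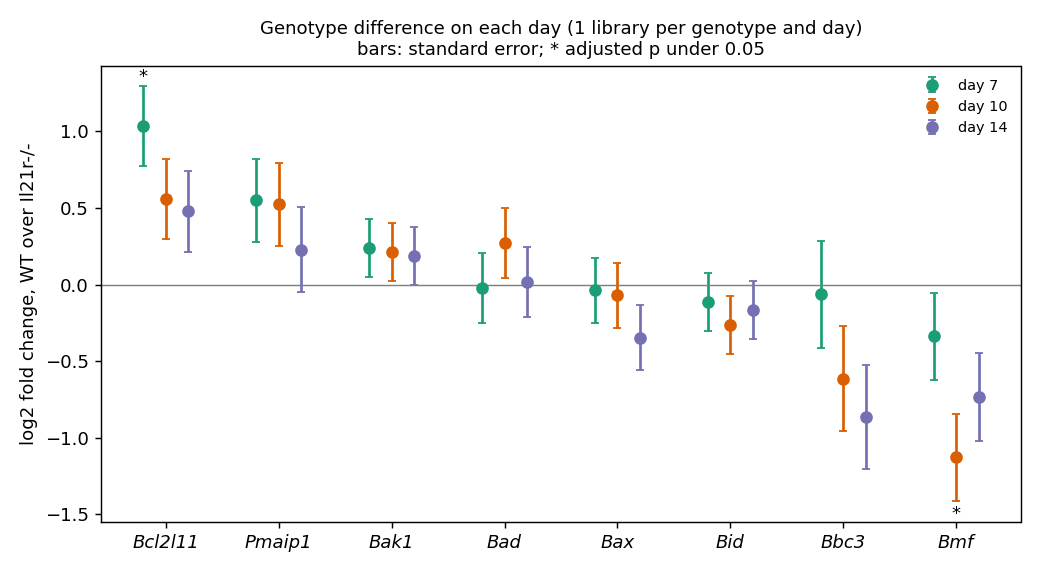
Log2 fold change, WT over Il21r-/- (y axis), of the 8 members tested on days 7, 10 and 14, with standard errors as bars and 1 library per genotype and day. *Bcl2l11* on day 7 (1.03) and *Bmf* on day 10 (-1.13) carry an asterisk for an adjusted p under 0.05, and the difference of *Bbc3* is near 0 on day 7 and -0.86 on day 14.

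*Bbc3* encodes PUMA, a BH3-only protein best known as a target of p53. It measured 6.26, 6.05 and 7.44 CPM in WT and 6.54, 9.26 and 13.6 CPM in Il21r-/- on days 7, 10 and 14. The 2 genotypes were alike on day 7, with 172 reads in WT and 151 in Il21r-/-, and the Il21r-/- library stood at 153% of WT on day 10 and 182% on day 14. Over the 3 days the log2 fold change was -0.52 ± 0.18 (adjusted p = 0.135 by edgeR's quasi-likelihood test), and with day as a factor -0.53 ± 0.16 (adjusted p = 0.0136). On these low counts the 95% Poisson interval of a library, which covers counting error only, was 5.36 to 7.26 CPM for WT day 7 and 12.1 to 15.1 CPM for Il21r-/- day 14.

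*Pmaip1* encodes NOXA, a BH3-only protein that binds MCL1 and A1. It measured 15.1, 13.8 and 11.4 CPM in WT and 10.3, 9.57 and 9.76 CPM in Il21r-/- on days 7, 10 and 14, so every WT library lay above every Il21r-/- library. The log2 fold change was 0.44 ± 0.13 (adjusted p = 0.0987 by edgeR's quasi-likelihood test), and with day as a factor 0.44 ± 0.13 (adjusted p = 0.0128). The Il21r-/- level was 68.3% of WT on day 7 and 85.4% on day 14, without a call on any single day.

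*Bid* and *Bad* were the abundant BH3-only genes and differed little. BID is cut by caspase-8 and so links death receptors to mitochondria. *Bid* measured 194, 175 and 171 CPM in WT and 210, 210 and 192 CPM in Il21r-/-, with a log2 fold change of -0.18 ± 0.089 (SE, adjusted p = 0.286) and a 95% interval of -0.38 to 0.02. BAD is inactivated by phosphorylation downstream of growth factor kinases. *Bad* measured 65.7, 68.3 and 74.1 CPM in WT and 66.8, 56.6 and 73.2 CPM in Il21r-/-, with a log2 fold change of 0.08 ± 0.11 (adjusted p = 0.728) and a 95% interval of -0.17 to 0.34. Its direction rested on 1 library, since without Il21r-/- day 10 the log2 fold change was -0.0098. Its gene overlaps *Gpr137*, which had up to 423 reads, and the kit did not mark strand, so some reads near their shared end cannot be assigned.

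*Bik*, whose product sits mainly at the endoplasmic reticulum, had 13 to 21 reads per library. The lowest level, 0.492 CPM in Il21r-/- day 10, had a 95% Poisson interval of 0.262 to 0.841 and the highest, 0.847 CPM in WT day 10, one of 0.524 to 1.29, so no difference was detectable at this depth. *Hrk*, known mainly from neurons, had 0 reads in all 6 libraries. A count of 0 allows up to 3 reads, that is 0.109 to 0.139 CPM per library.

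Neither effector was called over the 3 days. *Bax*, which moves from the cytosol to mitochondria when activated, measured 100, 97.6 and 97.9 CPM in WT and 103, 102 and 124 CPM in Il21r-/- on days 7, 10 and 14. The Il21r-/- levels all lay above the WT levels after TMM scaling, but by little on days 7 and 10, and the groups overlapped without it. Its log2 fold change was -0.15 ± 0.1 (adjusted p = 0.437). *Bak1*, whose product is already anchored in the mitochondrial membrane, measured 222, 202 and 165 CPM in WT and 188, 174 and 145 CPM in Il21r-/-. It was higher in WT on each day, with a log2 fold change of 0.21 ± 0.088 (adjusted p = 0.21, and 0.0462 with day as a factor, edgeR's quasi-likelihood test). The effector genes thus had estimates of opposite sign, both under 0.25 in size on the log2 scale.

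Of the 8 members tested, 3 had genotypes that did not overlap (*Bcl2l11*, *Pmaip1* and *Bax*), where 18.4% of all genes tested did not overlap in either direction. The genotype difference had the same sign on all 3 days for 7 of the 8, all but *Bad*, against 53.3% of all genes tested.

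The members also changed between days. *Bmf* was the member called for a linear effect of day, where 4.43% of all genes were called, and fell by 0.88 ± 0.18 on the log2 scale from day 7 to day 14 (adjusted p = 0.0334 by edgeR's quasi-likelihood test). By day 14 it was at 47.3% of its day 7 level in WT and 62.2% in Il21r-/-. The call was lost without WT day 7 (adjusted p = 0.33), Il21r-/- day 7 (0.0765), WT day 14 (0.282) or Il21r-/- day 14 (0.0977). *Bak1* had a log2 change of -0.41 ± 0.11 (adjusted p = 0.069), with day 14 at 74.2% of day 7 in WT and 76.9% in Il21r-/-. *Bcl2l11* had a log2 change of -0.47 ± 0.16 (adjusted p = 0.133), with 60.2% of the day 7 level left in WT and 88.3% in Il21r-/-. *Bbc3* had one of 0.66 ± 0.22 (adjusted p = 0.115), and its day 14 level was 119% of day 7 in WT and 207% in Il21r-/-. Without Il21r-/- day 10 these 3 genes were called as well, with adjusted p from 0.0104 to 0.033, and 2177 genes were called in place of 488. Without WT day 7 the log2 change of *Bcl2l11* was -0.29 (adjusted p = 0.574), and without Il21r-/- day 14 that of *Bbc3* was 0.39 (adjusted p = 0.548).

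These slopes were not shown to differ between genotypes. The difference in slope, WT minus Il21r-/-, was -0.78 ± 0.39 for *Bbc3* and -0.53 ± 0.31 for *Bcl2l11* over the 7 days, with an adjusted p of 1 for all 8 members in edgeR's quasi-likelihood test. No gene was called for this difference, which is 0% of the genes tested. Across all genes 118 had an unadjusted p under 0.05, none of them a member, and DESeq2 called 0.

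The balance between members within a library does not depend on the scaling of library sizes. The pairs below were chosen after the values were seen and are given without a test, with 95% intervals for counting error only. The RPKM ratio of *Bcl2l11* to *Bmf* was 0.519 (0.485 to 0.556), 0.754 (0.689 to 0.825) and 0.661 (0.595 to 0.735) in WT on days 7, 10 and 14. In Il21r-/- it was 0.201 (0.182 to 0.221), 0.235 (0.215 to 0.256) and 0.285 (0.258 to 0.315). The lowest WT ratio was above the highest Il21r-/- ratio. The RPKM ratio of *Bcl2l11* to *Bbc3* was 2.93, 2.32 and 1.49 in WT and 1.37, 1.03 and 0.585 in Il21r-/-, lower at each later day in both genotypes. In Il21r-/- day 14 *Bbc3* (6.86 RPKM) exceeded *Bcl2l11* (4.01 RPKM), whereas *Bcl2l11* was the higher of the pair in the other 5 libraries. In Il21r-/- day 10 the interval of this ratio was 0.887 to 1.2, so the order there was not resolved beyond counting error. The RPKM ratio of *Bax* to *Bak1* was 1.04, 1.12 and 1.37 in WT and 1.26, 1.36 and 1.98 in Il21r-/-, higher in Il21r-/- on each day and at each later day in both genotypes.

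**Figure D4:**
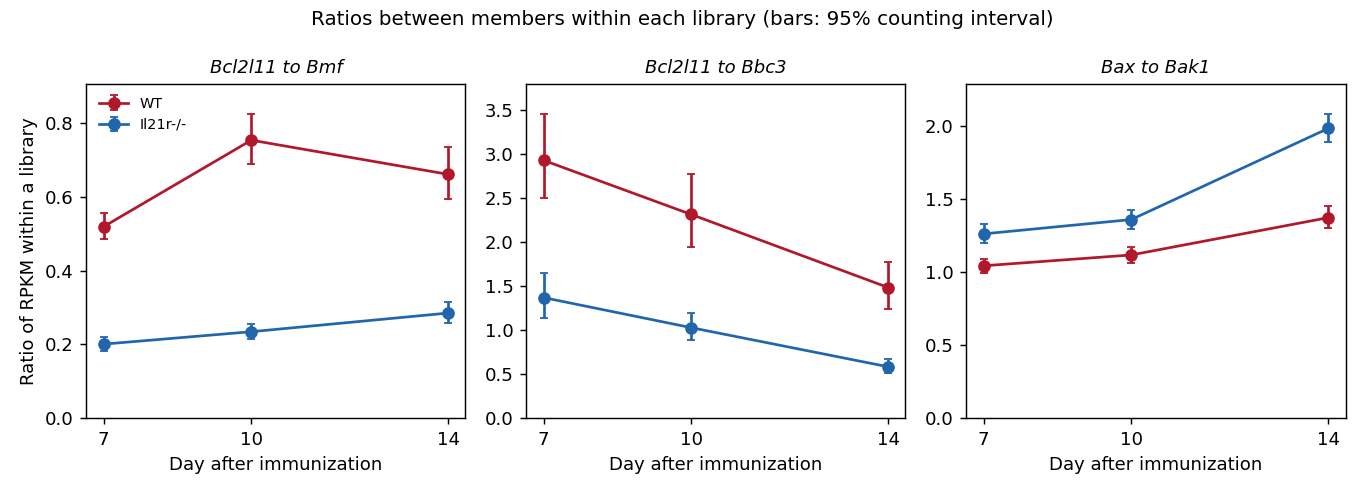
RPKM ratios within each library (y axes from 0) against the day after immunization for *Bcl2l11* to *Bmf*, *Bcl2l11* to *Bbc3* and *Bax* to *Bak1*, WT in red and Il21r-/- in blue, with 95% counting intervals as bars. The *Bcl2l11* ratios are higher in WT at every day and the *Bax* to *Bak1* ratio is higher in Il21r-/-, reaching 1.98 on day 14.

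The pro-survival relatives, which BH3-only proteins bind, lay on one side. Of 8 listed genes 7 were tested, 5 were called, and all 5 were higher in Il21r-/-, with a list median log2 fold change of -1.0 beside -0.01 over all genes. Of all genes 5.92% were called, and 76.3% of those were on this side. *Bcl2l1*, which encodes BCL-XL, ranged from 18.5 to 22.7 CPM in WT and from 31.0 to 46.7 CPM in Il21r-/- (log2 fold change -0.98 ± 0.17, adjusted p = 0.0123). *Bcl2a1a*, *Bcl2a1b* and *Bcl2a1d*, copies of the gene for A1, had log2 fold changes of -1.17, -1.12 and -1.0 (adjusted p from 0.0117 to 0.0126). They are near-identical in sequence, so how their reads were divided is uncertain. Their calls are therefore not independent of each other, and the list's count called and its median lean on them. *Bcl2*, named here after its values were seen, had a log2 fold change of -1.66 ± 0.33 (adjusted p = 0.022). Its level was low, at 0.807 to 3.02 CPM in WT and 3.71 to 6.06 CPM in Il21r-/-. *Mcl1*, required by GC B cells and likewise named after its values were seen, had one of -0.07 ± 0.097 (adjusted p = 0.748). Without WT day 14 none of the 5 genes was called. Without Il21r-/- day 7 or day 14, 3 were, and without Il21r-/- day 10, 4.

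The members had log2 fold changes of both signs, among them -0.52 for *Bbc3*, one of many p53 targets, 0.44 for *Pmaip1* and -0.15 for *Bax*. Besides the members, 18 of 20 genes listed as p53 and its targets were tested. Of these 5 were called, where 5.92% of all genes tested were. All 5 were higher in Il21r-/-, which was also the side of 76.3% of all genes called, and the list median was -0.23. The log2 fold change was negative for 13 of the 18 genes and positive for 5. *Sesn2* and *Sesn1*, stress-induced inhibitors of mTORC1, had log2 fold changes of -0.93 ± 0.14 (adjusted p = 0.00705) and -0.72 ± 0.12 (adjusted p = 0.00974). *Ccng1*, which encodes cyclin G1, had one of -0.64 ± 0.11 (adjusted p = 0.0117). *Phlda3*, an inhibitor of AKT, had one of -2.06 ± 0.48 (adjusted p = 0.0359) at only 0.121 to 3.51 CPM. *Ddit4*, the other gene called, and *Zmat3*, not called, were named after their values were seen. Their log2 fold changes were -1.01 ± 0.23 (adjusted p = 0.0391) and -0.7 ± 0.19 (adjusted p = 0.0748 by edgeR's quasi-likelihood test). *Trp53* itself, *Mdm2*, *Cdkn1a* and *Aen*, likewise named after their values were seen, had log2 fold changes of -0.06, 0.07, 0.02 and -0.02. None of them was called (adjusted p from 0.743 to 0.978 by edgeR's quasi-likelihood test). The count called was 0 without WT day 14, 3 without WT day 10 or with the Y-chromosome and Ig variable genes kept, 1 without Il21r-/- day 14 and 9 with day as a factor.

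Among regulators and binding partners of the members, 20 of 22 genes were tested and 1 was called. *Foxo3* encodes a forkhead factor known to activate transcription of *Bcl2l11* and *Bbc3*, and was higher in Il21r-/- at 5.34 to 6.77 CPM against 2.88 to 4.36 CPM in WT (log2 fold change -0.86 ± 0.17, adjusted p = 0.0241). *Bbc3* thus lay on the same side as *Foxo3* and *Bcl2l11* on the other. *Foxo1*, another forkhead gene of the list, named after its values were seen, was far more abundant, at 127 to 171 CPM. Its log2 fold change was -0.06 ± 0.11 (adjusted p = 0.794 by edgeR's quasi-likelihood test). The call of *Foxo3* was lost without Il21r-/- day 7 (adjusted p = 0.0508), WT day 10 (0.104), WT day 14 (0.178) or Il21r-/- day 14 (0.105), and 7 genes of the list were called with day as a factor and 6 without Il21r-/- day 10.

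The letters of a forkhead site, GTAAACA on either strand, were looked for in RefSeq promoter windows (GRCm38.p6, 250 bases before to 50 after a start site) because *Foxo3* was called and both genes are known targets. They were in 3.65% of all 32851 windows. Among the 8 members with an entry that was searched, they were in 1 of 2 windows of *Bcl2l11*, 1 of 3 windows of *Bbc3* and no window of the others. The estimates of *Bcl2l11* and *Bbc3* lay on opposite sides of the genotype comparison, that of *Bbc3* without a call in the main comparison. The letters began 227 bases before the start site in *Bcl2l11* and 167 before it in *Bbc3*. The sites are shown with their flanks and with the letters in capitals, from chr2:128125788-128125847 and chr7:16310064-16310130, both on the plus strand.
Bcl2l11 site: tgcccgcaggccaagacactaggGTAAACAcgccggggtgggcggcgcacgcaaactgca
Bbc3 site: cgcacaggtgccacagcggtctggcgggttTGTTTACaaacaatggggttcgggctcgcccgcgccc

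The E-box letters CACGTG, in 7.15% of all windows, were in 1 window of *Bbc3* and in that of *Bax*. TTTCCCGC (E2F, 1.07% of windows) and TGACGTCA (CRE, 1.79%) were in none of the members' windows. None of the 4 patterns overlaps another, and a match says only that the letters are there.

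Downstream of the members, all 21 genes of the apoptosome and caspase list were tested and 1 was called, where 5.92% of all genes were. *Birc2*, which encodes the ubiquitin ligase cIAP1, was higher in Il21r-/- (log2 fold change -0.45 ± 0.11, adjusted p = 0.0449). Its call was lost when any library but Il21r-/- day 10 was left out, with adjusted p from 0.0623 to 0.353, and with the Y-chromosome, *Xist* and Ig variable genes kept (adjusted p = 0.0526), and the list median was 0.00. With day as a factor 4 genes of this list were called, and without Il21r-/- day 10, 2. Of the death receptor pathway, which reaches the members through *Bid*, 11 of 13 genes were tested and 0 were called, while 1, *Tnfrsf10b*, had an unadjusted p under 0.05 (log2 fold change -0.69 ± 0.26, adjusted p = 0.173). Of the other BCL2 family genes, 7 of 10 were tested and 0 were called, also at an unadjusted p under 0.05. DESeq2 called 0 genes of either list, and 1 gene of each was called without Il21r-/- day 10. The smallest p was that of *Bnip3l*, a mitophagy receptor, with a log2 fold change of -0.24 ± 0.11 (adjusted p = 0.238, and 0.0465 with day as a factor).

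**Figure D5:**
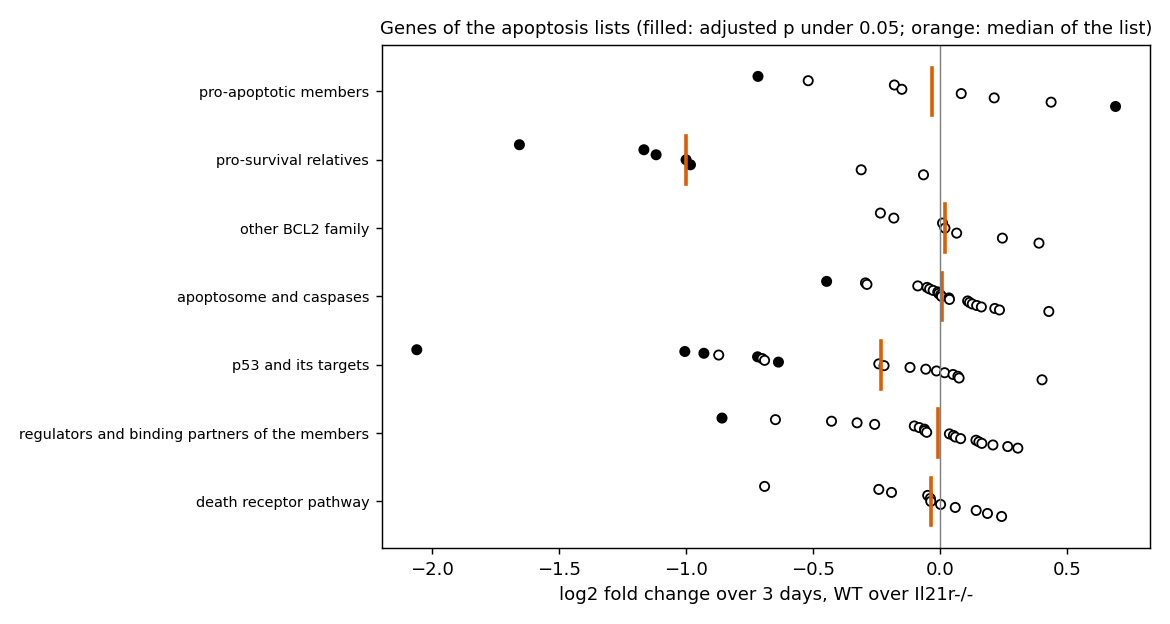
Log2 fold change over the 3 days, WT over Il21r-/- (x axis), of each gene tested in the members and in 6 lists of related apoptosis genes, with filled points for an adjusted p under 0.05 and an orange line at the list's median. The members fall on both sides of 0, whereas the 7 pro-survival relatives tested all lie below 0, with a median of -1.0.

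The libraries carried the markers of their label. The 9 GC B cell markers summed, among them *Bcl6* and *Fas*, came to 4367 to 4703 CPM in WT and 4491 to 4820 CPM in Il21r-/-. Light zone markers moved with genotype, on the same side as *Bmf* and the pro-survival relatives and opposite to *Bcl2l11*. The 10 light zone markers summed to 1183 to 1659 CPM in WT and 2508 to 2684 CPM in Il21r-/-. Of the 10, 6 were called, all 6 higher in Il21r-/-, the side of 76.3% of all genes called. The 9 dark zone markers summed came to 1991 to 2272 CPM in WT and 1720 to 2029 CPM in Il21r-/-, so the genotypes overlapped although WT was the higher library on each day, with 0 called. *Bcl2a1b* is in both the light zone and the pro-survival list. The genes named from here on were chosen after their values were seen. Markers of other B cells summed to 553 to 1213 CPM in WT and 919 to 1426 CPM in Il21r-/-, but *Fcer2a*, which is also in the light zone list, was 153 to 389 CPM of this in WT and 507 to 802 CPM in Il21r-/-. Without it the other 7 genes summed to 400.2 to 824 CPM in WT and 413 to 625 CPM in Il21r-/-, and the genotypes overlapped. Of the 8 genes 5 were called, 1 of them, *Ighm*, higher in WT. Markers of plasma cells summed to 2505 to 2719 CPM in WT and 2753 to 3594 CPM in Il21r-/-, of which *Jchain* alone was 2266 to 3289 CPM. Of the 4 tested, *Xbp1* was called higher in Il21r-/- (log2 fold change -0.39) and *Prdm1*, the regulator of plasma cell fate, higher in WT (1.64). The level of *Prdm1* was low, at 1.38 to 1.82 CPM in WT and 0.26 to 0.677 CPM in Il21r-/-. The part of these cell types in the differences of the members was not tested. Of the T cell markers, *Lck* stood at 80.2 to 120 CPM. The other 7 summed to 0.888 to 1.42 CPM in WT and 1.87 to 2.19 CPM in Il21r-/-, with *Cd3e* and *Cd8a* at 3 reads or fewer in every library. The 8 myeloid markers summed to 8.19 to 13.2 CPM in WT and 11.3 to 17.8 CPM in Il21r-/-, and Il21r-/- was the higher library on each day. *Elane* and *Mpo* had 3 reads or fewer. Of the 3 myeloid markers tested, 1 was called, higher in Il21r-/-. The 5 erythroid markers summed to 2.5 to 12.4 CPM. The part of these cells in the differences of the members was not tested either.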

How the data were processed

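The libraries were made with TruSeq v2 and read as 100 bp single ends. The authors used Rsubread for alignment to mm10 and featureCounts, with the RefSeq genes built into Rsubread, for counting, and deposited unnormalized counts per gene with each gene's counted length, technical replicates being pooled. Strand and multi-mapping settings are not given in the sources used here. CASAVA 1.8.2 is named in the submitters' processing notes. Symbols were found for 25293 of 27179 identifiers. As in the study's methods, genes whose aveLogCPM was negative were not tested, nor were 337 genes on the Y chromosome, *Xist* or of Ig variable regions, and libraries were scaled by TMM. Dispersions over 3 days, for day and within a day came from an additive model of genotype and linear day with robust estimation. Its biological coefficient of variation was 13.1%, with 3 residual degrees of freedom. The interaction and the fit with day as a factor used dispersions from their own models. Over 3 days, for day and for the interaction, edgeR 4.0.16 (R 4.3.3) quasi-likelihood tests were used, and effects within a day used likelihood ratio tests in a model that gave every day its mean. DESeq2 1.42.0 was an alternative. The code was tested on simulated data.

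Libraries were paired by the day in their labels. The deviations of the 2 libraries of a day from their genotype means correlated at 0.654, 0.465 and 0.669 on days 7, 10 and 14, across genes, which are not independent replicates. Named genes were all 10 members, *Il21r*, and from each list every gene called over 3 days, the 4 with the smallest p where more were, or the 1 with the smallest p where none was. Members and lists were chosen with earlier results of these data known. The alternatives were another scaling, filters on low counts, the left-out genes kept, other day terms and tools, and leaving out each library. One marker of the GC B cell and dark zone lists is not reported here and is not in their sums.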

Additional observations from a re-analysis of the deposited data

How the results depend on the processing

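Of the values for single genes, 420 kept their direction and their side of the threshold under an alternative, while 41 lost and 12 gained the threshold. The 1 that reversed was *Bad* over 3 days, at -0.0098 without Il21r-/- day 10, and it reached 0.187 without Il21r-/- day 7. Leaving out a library moved the genes called over 3 days from 651 to between 132 (without WT day 14) and 2165 (without Il21r-/- day 10), with 342 without WT day 10 and 284 without Il21r-/- day 14, and the members called from 2 to between 0 and 2, with 0 without Il21r-/- day 7 or WT day 14 and 1 without WT day 7, WT day 10 or Il21r-/- day 14. For the linear effect of day the range was 0 (without WT day 7) to 2177 genes (without Il21r-/- day 10), with 36, 5 and 142 without Il21r-/- day 7, WT day 14 and Il21r-/- day 14, and 0 to 4 members. For the difference in slope it was 0 to 12 genes, the highest without WT day 7. For single days it was 104 to 220 genes on day 7, 267 to 418 on day 10 and 341 to 704 on day 14, the highest on days 7 and 14 without Il21r-/- day 10.

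Pairing the libraries by day as a replicate block gave 2519 genes and 5 members over 3 days. Dispersions from the block gave 303 genes on day 7, 822 on day 10 and 1055 on day 14, where 2 members, *Bmf* and *Bbc3*, were then called. Without a filter on low counts 1028 genes were called over 3 days and 880 for day, and a likelihood ratio test called 1193 over 3 days. Keeping the linear day term in the day-wise fit gave 722 genes and 2 members on day 10. DESeq2 called 32 genes and 0 members on day 7, 132 genes on day 10, 94 on day 14, and 870 genes and 2 members for day. Without a genotype term 11 genes and 0 members were called for day. The causes of these changes were not tested. Another scaling moved the median log2 fold change of all genes from -0.0098 to -0.0010. The 13 to 21 reads on *Bik* limit what could be detected for it.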
